A study of Mus musculus with 7 samples.

Results

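The genes of 4 JAK kinases (Jak1, Jak2, Jak3 and Tyk2) and 5 STAT factors (Stat2, Stat3, Stat4, Stat5a and Stat5b) were examined in splenic naive CD4 T cells of mice with overactive phosphoinositide 3-kinase delta. They were taken by gene symbol from an expression table of 34745 genes, in which all 9 were present, and all 9 passed the filter on low counts. The PIK3CD gain-of-function (GOF) group was 4 mice heterozygous for an activating allele of the gene for the p110delta catalytic subunit, and the wild-type (WT) group was 3 littermate controls. All 7 were male C57BL/6 mice aged 8 weeks, and had no treatment. The cells were purified by negative selection with no culture step, so that cells missed by the depletion remain in the libraries. Which substitution the allele carries and which cells of the mouse carry it are not given in the labels.

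The cytokine receptors of T cells that signal through Janus kinases have no enzyme activity of their own. Janus kinases bound to their cytoplasmic tails phosphorylate the receptor and then the STAT proteins docked on it, which pair, enter the nucleus and activate transcription. JAK1 and JAK3 serve the common gamma chain receptors for IL-2, IL-4, IL-7, IL-15 and IL-21, JAK1 with JAK2 serves the interferon gamma receptor, JAK2 with TYK2 serves the IL-12 receptor, and JAK1 with TYK2 serves the type I interferon receptor. Among the transcription factors STAT5A and STAT5B act downstream of IL-2 and IL-7, STAT3 downstream of the IL-6 family and IL-21, STAT4 downstream of IL-12, and STAT2 joins IRF9 in the complex that answers type I interferon.

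Promoter windows (250 bases before to 50 after a transcript start, RefSeq, GRCm38.p6) were matched for all 9 genes, with 12 windows in all. They were searched on both strands for 3 motifs that JAK-STAT or PI3K signalling acts through. The STAT binding motif known as GAS (TTCNNNGAA) was in 0 of the 12 windows and in 8.30% of 32851 mouse promoter windows of the same length. The FOXO motif (GTAAACA) was in 0 of the 12 and in 3.65% of all windows. The interferon-stimulated response element, searched as a pair of GAAA blocks with 2 bases of any kind between them, was in 2 of the 12, one of Stat2 and one of Stat4, and in 3.44% of all windows. These are letter matches only, and their absence says nothing about factor binding. The pair of windows with a match is printed because their genes moved in opposite directions, and that of Jak3 because it had the largest rise. Capitals mark the matches, which begin 222 bases before the Stat2 start and 97 bases before the more downstream of the Stat4 starts. All 3 are on the plus strand, and the Jak3 window holds no match.
Stat2 chr10:128270248-128270547: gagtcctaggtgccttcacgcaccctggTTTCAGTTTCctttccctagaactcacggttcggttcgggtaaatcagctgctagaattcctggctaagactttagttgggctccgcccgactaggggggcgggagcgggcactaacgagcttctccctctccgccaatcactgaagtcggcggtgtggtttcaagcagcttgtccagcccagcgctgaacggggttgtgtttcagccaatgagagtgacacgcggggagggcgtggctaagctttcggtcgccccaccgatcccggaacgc
Stat4 chr1:52007990-52008289: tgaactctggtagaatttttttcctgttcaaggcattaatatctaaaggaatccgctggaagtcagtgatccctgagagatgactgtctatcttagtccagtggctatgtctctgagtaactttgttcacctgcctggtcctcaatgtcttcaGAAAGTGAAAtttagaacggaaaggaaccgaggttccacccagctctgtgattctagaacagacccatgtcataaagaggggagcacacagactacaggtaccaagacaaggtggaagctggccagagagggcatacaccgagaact
Jak3 chr8:71676133-71676432: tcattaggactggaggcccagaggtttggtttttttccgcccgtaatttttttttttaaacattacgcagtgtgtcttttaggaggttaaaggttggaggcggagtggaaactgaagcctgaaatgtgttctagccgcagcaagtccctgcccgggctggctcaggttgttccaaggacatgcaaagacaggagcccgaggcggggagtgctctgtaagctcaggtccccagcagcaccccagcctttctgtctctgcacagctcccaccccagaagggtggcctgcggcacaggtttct

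Library totals were 14945520 to 16293539 counts in GOF and 14497957 to 15015783 in WT. Values are counts per 1000000 counts (CPM) with TMM-scaled totals, and tests are edgeR quasi-likelihood tests over 12668 genes with Benjamini-Hochberg adjustment and a threshold of 0.05. Pik3cd mRNA, which does not show the allele, was at 652 ± 129 CPM in GOF (SD, n = 4) and 1136 ± 325 CPM in WT (SD, n = 3). Its log2 fold change was -0.80 (SE 0.20, edgeR adjusted p = 0.0154). It was -0.58 without GOF replicates 1 and 3 and -1.06 without GOF replicates 2 and 4 (edgeR adjusted p = 0.106 and 0.0173). The call was kept in 15 of the 16 alternatives run. The 11 CD4 T cell markers summed to 9205 to 10215 CPM in GOF and 7950 to 8313 CPM in WT, so the labelled cell type was present. Markers of other cells were also present. Myeloid markers (9 of 10 called higher, 0 lower) summed to 445 and 487 CPM in GOF replicates 1 and 3 and to 143 and 167 CPM in GOF replicates 2 and 4, against 43.9 to 81.8 CPM in WT. Neutrophil markers (8 of 8 higher) summed to 60.3 to 209 CPM in GOF and 0.482 to 8.12 CPM in WT, where Camp had 0 counts. B cell markers (5 of 8 higher, 0 lower) summed to 97.8 to 182 CPM in GOF and 28.2 to 87.8 CPM in WT, and NK and CD8 markers (7 of 9 higher, 0 lower) to 125 to 172 CPM in GOF and 60.6 to 77.1 CPM in WT. The CD8 chain genes of that list did not rise. Cd8a was at 5.63 CPM in GOF and 9.67 CPM in WT, and Cd8b1 at 20.5 and 24.0 CPM, neither of them called. Erythroid markers (4 of 5 higher, 0 lower) summed to 18.1 to 59.7 CPM in GOF and 3.97 to 17.4 CPM in WT, where Car1 had 0 counts. In such bulk libraries fewer cells of a type and less RNA per cell cannot be told apart.

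The 9 genes did not all move one way. Of the 9 genes 4 rose (Jak3, Stat2, Stat3, Tyk2), 3 fell (Stat4, Jak2, Stat5b) and 2 (Jak1, Stat5a) did not pass the threshold. The fall of Stat4 is that of its own counts. Summed with Gm28177, a predicted gene that shares exons with it, the level was higher in GOF (391 CPM, against 312 CPM in WT). In all, 7 of 9 were called, where 31.3% of all tested genes were, with 16.8% called higher and 14.5% called lower. The 9 genes were chosen with earlier results of these data known, so this excess is not independent evidence. Each of them also had at least 1019 counts in every library, whereas the tested genes include some with far fewer. The number called higher was 2 without GOF replicate 4 and 1 without WT replicate 3, with 3 called lower each time. The libraries of the groups did not overlap for the same 7 genes, beside 39.8% of all tested genes. Jak2, Jak3 and Stat4 changed by at least 1 on the log2 scale and passed the threshold, which 13.7% of all tested genes did. The median log2 fold change of the 9 genes was 0.14, beside 0.0061 over all tested genes, and the median size regardless of direction was 0.48 beside 0.33. Over all genes edgeR called 2130 higher and 1838 lower, whereas limma with log2(FPKM + 1) called 2606 higher and 1393 lower. The directions of the 9 genes were the same under the 16 alternatives run. Of the 7 called genes, only Jak2, Jak3 and Stat4 kept the call under all 16.

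**Figure D1:**
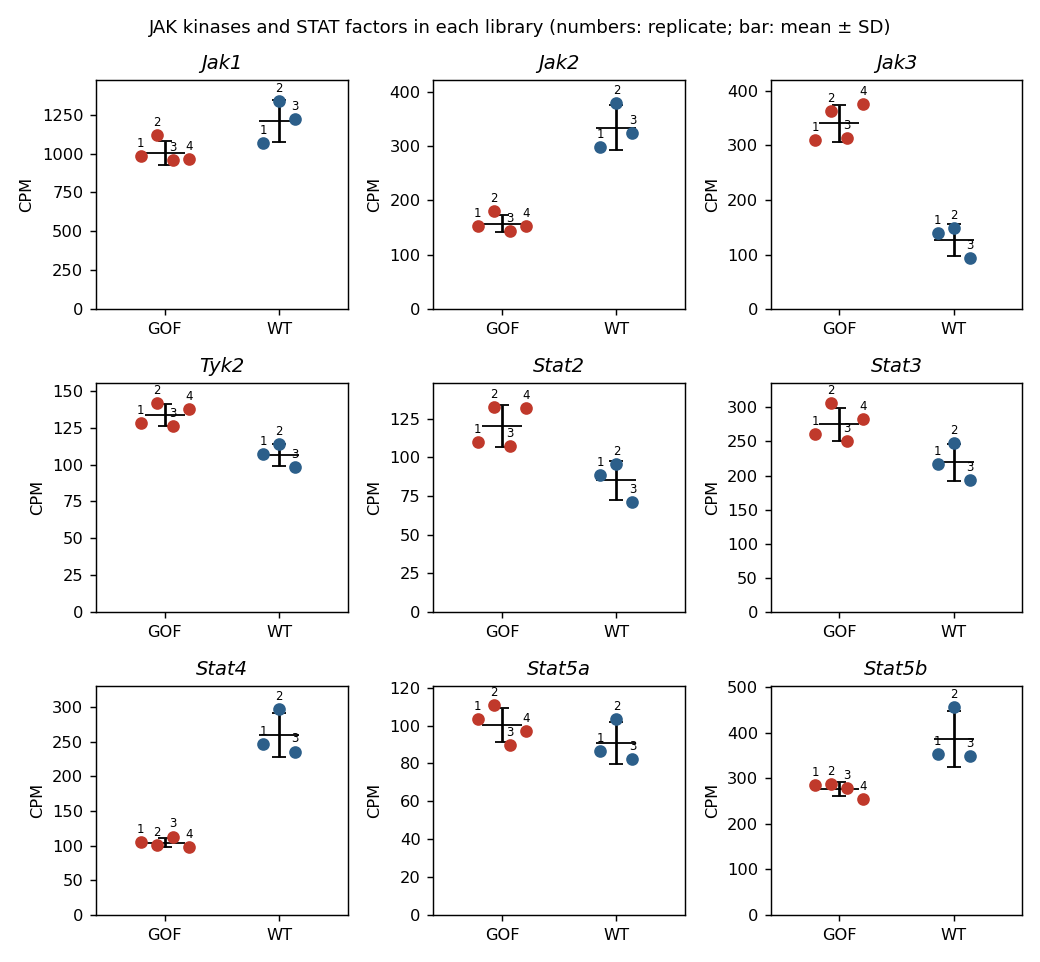
CPM (vertical axes, each starting at 0) of the 9 genes in the 4 GOF libraries (red) and the 3 WT libraries (blue); numbers are replicates, and bars give the mean ± SD. Jak3 lies at 309.7 to 375 CPM in GOF and 93.8 to 149 CPM in WT, while Stat4 lies at 98.3 to 113 CPM in GOF and 236 to 297 CPM in WT.

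Among the kinases Jak3, the partner of the common gamma chain, showed the largest rise. Jak3 (ENSMUSG00000031805, mm10 chromosome 8, 71676296 to 71690575, plus strand) was at 309.7, 364, 313 and 375 CPM in the GOF libraries and at 139, 149 and 93.8 CPM in the WT libraries. No WT library came near the GOF libraries. The rise was 2.67-fold (log2 fold change 1.42, SE 0.16, edgeR adjusted p = 0.000281). With GOF replicates 1 and 3 removed it was 1.53 on the log2 scale, and with GOF replicates 2 and 4 removed it was 1.302 (edgeR adjusted p = 0.00253 and 0.00476), removals chosen after seeing the data. The neighbouring Insl3 overlaps the 3′ part of the Jak3 locus on the same strand and shares 404 exonic bases with it, and was at 2.25 ± 0.949 CPM in GOF (SD, n = 4) and 0.843 ± 0.313 CPM in WT (SD, n = 3).

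Jak2, the kinase of the interferon gamma and IL-12 receptors, fell. Jak2 (ENSMUSG00000024789, chromosome 19, 29251828 to 29313080, plus strand) was at 152, 180.2, 144 and 153 CPM in GOF and at 298, 379 and 324 CPM in WT. The GOF level was 2.12-fold lower (log2 fold change -1.08, SE 0.11, edgeR adjusted p = 0.000142), and the lowest WT library was still well above the highest GOF library. With GOF replicates 1 and 3 removed the log2 fold change was -1.01, and with GOF replicates 2 and 4 removed -1.16 (edgeR adjusted p = 0.00407 and 0.00171).

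Tyk2 and Jak1 changed less. Tyk2 (ENSMUSG00000032175, chromosome 9, 21104069 to 21127346, minus strand), the kinase paired with the type I interferon and IL-12 receptors, was at 128, 142, 126 and 138 CPM in GOF and at 107, 114 and 98.5 CPM in WT. The groups were narrowly apart, with a log2 fold change of 0.33 (SE 0.09, edgeR adjusted p = 0.0202). The call was lost without GOF replicate 4 or WT replicate 3 (adjusted p = 0.0505 and 0.0857), and also without GOF replicates 1 and 3 or without 2 and 4 (0.0575 and 0.109, at log2 fold changes of 0.38 and 0.27). Jak1 (ENSMUSG00000028530, chromosome 4, 101152367 to 101265282, minus strand), the kinase shared by most of these receptors, was at 982, 1121, 960 and 963 CPM in GOF and at 1068, 1337 and 1225 CPM in WT. Its groups overlapped, because GOF replicate 2 lay above WT replicate 1. The log2 fold change was -0.27 (SE 0.10, edgeR adjusted p = 0.0758), and of the alternatives run it passed the threshold only without GOF replicate 2 or without WT replicate 1 (adjusted p = 0.0426 and 0.0322).

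The STAT factors also split. Stat4, which transmits IL-12 signals in T cells, showed the largest fall of the 9 genes. Stat4 (ENSMUSG00000062939, chromosome 1, 51987148 to 52107189, plus strand) was at 105, 100.5, 113 and 98.3 CPM in GOF and at 247, 297 and 236 CPM in WT. The GOF libraries were tightly grouped below the WT libraries, and the level was 2.49-fold lower (log2 fold change -1.32, SE 0.10, edgeR adjusted p = 2.77e-05). With GOF replicates 1 and 3 removed the log2 fold change was -1.39, and with GOF replicates 2 and 4 removed -1.24 (edgeR adjusted p = 0.000858 and 0.00145). Stat4 shares exons with the predicted gene Gm28177, and the sum of both was higher in GOF.

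Stat2, the partner of IRF9 in type I interferon signalling, rose. Stat2 (ENSMUSG00000040033, chromosome 10, 128270576 to 128292849, plus strand) was at 109.99, 133, 108 and 132 CPM in GOF and at 88.5, 95.9 and 70.95 CPM in WT. The groups did not overlap, and the log2 fold change was 0.50 (SE 0.13, edgeR adjusted p = 0.0181). The call was lost without WT replicate 3 (adjusted p = 0.0668) and without GOF replicates 2 and 4 (0.114, at a log2 fold change of 0.37). Stat3 (ENSMUSG00000004040, chromosome 11, 100885098 to 100939540, minus strand), the factor of IL-6 and IL-21 signals, was at 262, 306, 251 and 283 CPM in GOF and at 217, 248 and 194 CPM in WT. The lowest GOF library was only slightly above the highest WT library, and the call was marginal (log2 fold change 0.33, SE 0.11, edgeR adjusted p = 0.0464). It was lost without GOF replicate 1, 2 or 4 (adjusted p = 0.0685, 0.0893 and 0.0934), without WT replicate 1 or 3 (0.106 and 0.169), with no filter on low counts (0.0555), and without GOF replicates 1 and 3 or 2 and 4 (0.0657 and 0.208, at log2 fold changes of 0.42 and 0.24).

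The neighbouring genes Stat5a and Stat5b, whose products transmit IL-2 and IL-7 signals, did not move together. Stat5b (ENSMUSG00000020919, chromosome 11, 100780731 to 100850724, minus strand) was at 286, 288, 279 and 254 CPM in GOF and at 353, 457 and 349 CPM in WT, with every GOF library below every WT library. It fell by 0.48 on the log2 scale (SE 0.11, edgeR adjusted p = 0.00970), a call lost with either pair of GOF replicates removed, at log2 fold changes of -0.52 without 1 and 3 and -0.44 without 2 and 4 (adjusted p = 0.0518 and 0.0645). Stat5a (ENSMUSG00000004043, chromosome 11, 100859351 to 100885169, plus strand) was at 103, 111, 89.9 and 97.2 CPM in GOF and at 86.4, 103 and 82.4 CPM in WT. Its groups overlapped and it did not pass (log2 fold change 0.14, SE 0.11, edgeR adjusted p = 0.359). The ratio of Stat5a to Stat5b counts within a library, which does not depend on library scaling, was 0.362, 0.384, 0.322 and 0.382 in GOF and 0.245, 0.226 and 0.236 in WT. The ratio was higher in every GOF library, by 0.62 on the log2 scale or 1.53-fold (exact 2-sided permutation test, p = 0.0571, the smallest this design allows). Of the 50-base windows of the longest coding transcript, 15.8% for Stat5a and 11.8% for Stat5b were identical between these genes, so how reads in those stretches were counted could shift counts from one to the other.

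**Figure D2:**
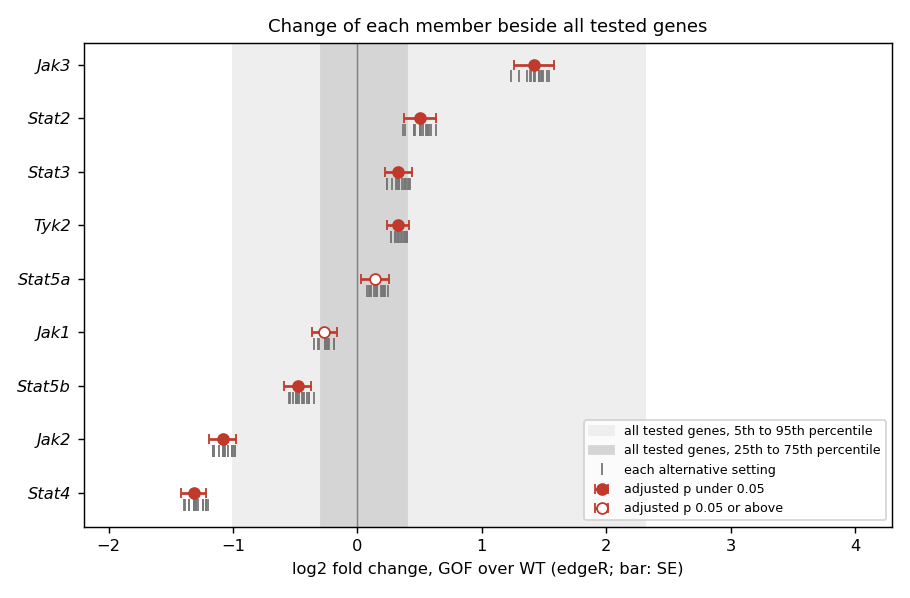
log2 fold change of GOF over WT (horizontal axis, edgeR, bar: SE) for each of the 9 genes, filled where the adjusted p was under 0.05, over bands of the 5th to 95th and 25th to 75th percentile of all tested genes; grey ticks are the alternative settings. The genes run from -1.32 for Stat4 to 1.42 for Jak3, and no tick crosses 0.

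Levels of different genes were compared as CPM per kilobase of the longest coding transcript in GENCODE M21, since the deposited FPKM of some genes rests on a length well above it (15739 bases for Stat3, against 6042). Jak1 had the highest level in both groups, at 205 ± 15.7 CPM per kb in GOF (SD, n = 4) and 247 ± 27.6 in WT (SD, n = 3). The order below it differed. In GOF it was Jak3 (84.7 ± 8.41), Stat5b (53.1 ± 2.95), Stat3 (45.6 ± 4.04), Stat4 (34.97 ± 2.20), Jak2 (31.3 ± 3.11), Tyk2 (27.7 ± 1.55), Stat2 (27.4 ± 3.10) and Stat5a (25.8 ± 2.27). In WT it was Stat4 (87.1 ± 10.9), Stat5b (74.1 ± 11.7), Jak2 (66.3 ± 8.21), Stat3 (36.3 ± 4.48), Jak3 (31.7 ± 7.34), Stat5a (23.3 ± 2.86), Tyk2 (22.1 ± 1.59) and Stat2 (19.4 ± 2.92). In GOF the ranges of Jak1 and Jak3, of Jak3 and Stat5b, and of Stat3 and Stat4 were apart, and those of the other neighbours in the order overlapped. In WT only Jak1 and Stat4, and Jak2 and Stat3, were apart. By mean deposited FPKM Stat4 was the fourth of the 9 in WT and Jak3 the third in GOF, so the order within a group depends on the length used.

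The make-up of the kinase pool differed between the groups while its sum did not separate them. The summed level of the 4 kinases was 334, 384, 328 and 349 CPM per kb in GOF and 334, 408 and 358 in WT. Jak3 made up 23.1, 23.6, 23.7 and 26.8% of it in GOF and 10.4, 9.08 and 6.52% in WT. Jak2 made up 8.96% ± 0.283 in GOF (SD, n = 4) and 18.1% ± 0.351 in WT (SD, n = 3), so Jak3 exceeded Jak2 in every GOF library and was below it in every WT library. Jak1 held 58.8% ± 1.69 in GOF and 67.2% ± 2.33 in WT, and Tyk2 7.94% ± 0.221 in GOF and 6.05% ± 0.540 in WT. The 5 STAT genes examined are not all the STAT genes of the mouse, so their sum and shares do not describe the whole STAT family. Their summed level was 187 ± 7.76 CPM per kb in GOF and 240.2 ± 32.1 in WT. That difference rests on Stat4, whose reads in exons shared with Gm28177 were assigned in an unknown way and which together with Gm28177 was higher in GOF. Without Stat4, an alternative chosen after seeing the data, the sum was 143 to 164 CPM per kb in GOF and 136 to 177 in WT, and the groups overlapped. With Stat4 as counted, it made up 18.8% ± 1.72 of that sum in GOF and 36.3% ± 0.375 in WT, Stat3 24.4% ± 1.36 in GOF and 15.1% ± 0.490 in WT, and Stat2 14.7% ± 1.37 in GOF and 8.06% ± 0.671 in WT. Stat5a held 13.8% ± 0.748 in GOF and 9.72% ± 0.112 in WT, and Stat5b, which overlapped between groups, 28.4% ± 1.502 in GOF and 30.8% ± 1.07 in WT. Of the sum without Stat4, Stat3 held 29.97% ± 1.13 in GOF and 23.7% ± 0.752 in WT, Stat2 18.03% ± 1.43 in GOF and 12.6% ± 1.02 in WT, and Stat5a 16.96% ± 0.697 in GOF and 15.3% ± 0.265 in WT. Stat5b held 35.04% ± 2.45 of it in GOF and 48.3% ± 1.69 in WT, with no overlap. Shares within one sum are not independent of each other, and no test was made of them.

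**Figure D3:**
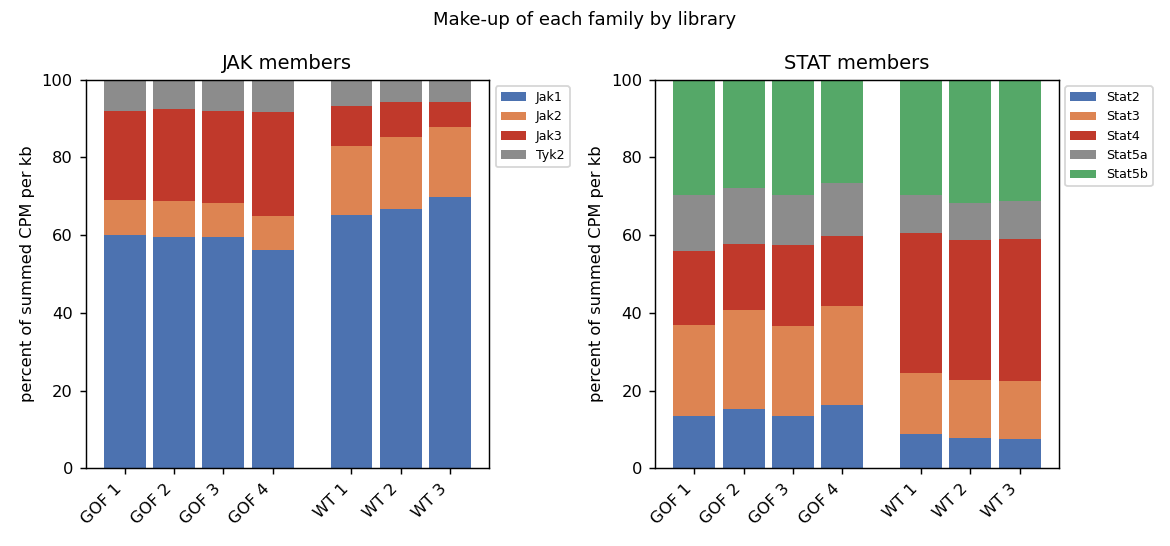
Stacked bars of the percent of the summed CPM per kb held by each of the 4 kinase genes (left) and each of the 5 STAT genes examined (right). The 4 GOF libraries are followed, to their right, by the 3 WT libraries. The Jak3 segment is at least 23.1% in every GOF library and at most 10.4% in every WT library, and the Stat4 segment, from Stat4 counts alone, is at most 21.02% in GOF and at least 35.99% in WT, whereas the CPM of Stat4 and Gm28177 together was higher in GOF.

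The 4 genes that rose were each lower in GOF replicates 1 and 3 than in GOF replicates 2 and 4. The sums of all 5 marker lists of other cells were highest in GOF replicates 1 and 3. Stat4 was lower in GOF replicates 2 and 4 than in 1 and 3. For Jak3, Stat2, Stat3, Tyk2 and Stat4, GOF replicates 2 and 4 thus lay farther from WT than 1 and 3. This split was seen only after the data were known, and the part of other cells in it was not tested. Jak2 was also lower in GOF replicates 1 and 3 than in 2 and 4, which for this gene is farther from WT. Stat5b, Jak1 and Stat5a did not split the GOF replicates in this way. In addition, GOF replicate 2 held the highest CPM of its group for 7 of the 9 genes, rising and falling ones alike. It did so for 29.6% of all tested genes.

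Some of the genes overlap or adjoin another gene. Stat5b and Stat5a are 8626 bases apart with 0 annotated genes between them, and the ends of Stat5a and Stat3 overlap by 72 bases on opposite strands, so the strand setting of the counting, which is not given in the sources used here, touches that overlap. The predicted gene Gm28177 overlaps Stat4 on the same strand and shares 1033 exonic bases with it, and it also has exons outside Stat4. It was at 286 ± 10.3 CPM in GOF (SD, n = 4) and 52.1 ± 12.7 CPM in WT (SD, n = 3). Its ratio to Stat4 was 2.53 to 3.05 in GOF and 0.180 to 0.225 in WT. Stat4 and Gm28177 together summed to 391 ± 11.0 CPM in GOF and 312 ± 44.9 CPM in WT, so the direction of the sum is opposite to that of Stat4 alone. How reads in the shared exons were assigned is not given in the sources used here, and its part in the fall of Stat4 was not tested. Of the 50-base windows of the Stat4 transcript 28.6% are also in Gm28177. For the longest coding transcripts of Jak1, Jak2, Tyk2 and Stat2 0% of such windows occur in transcripts of another gene, and for Jak3 8.94% do, all of them in Insl3. Over all its annotated exons Tyk2 shares 554 bases with 1700084C06Rik on the opposite strand. That gene was at 0.161 ± 0.111 CPM in GOF and 0.326 ± 0.141 CPM in WT.

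Upstream of the kinases, cytokine receptor chains were also split, with 7 of 19 tested chains higher, 6 lower and 6 not called (median log2 fold change 0.058), beside 16.8% higher and 14.5% lower over all tested genes. Il12rb1, the IL-12 and IL-23 receptor chain that binds TYK2, rose to 17.7 ± 2.24 CPM in GOF (SD, n = 4), against 1.26 ± 0.686 CPM in WT (SD, n = 3). Il21r, a common gamma chain partner, rose to 367 ± 27.8 CPM in GOF, against 191 ± 28.2 CPM in WT. Ifngr1, the ligand-binding chain of the interferon gamma receptor, fell to 147 ± 11.9 CPM in GOF, against 973 ± 265 CPM in WT, and Il4ra, the chain that binds IL-4, fell to 441 ± 36.6 CPM in GOF, against 1278 ± 112 CPM in WT. Il2rg, the common gamma chain that JAK3 binds, and Il7r, the IL-7 receptor alpha chain, were chosen after their values were seen. Il2rg was at 1033 ± 65.2 CPM in GOF and 688 ± 39.7 CPM in WT (log2 fold change 0.59, edgeR adjusted p = 0.00105), and Il7r at 449.7 ± 48.6 CPM in GOF and 906 ± 239.8 CPM in WT (-1.01, edgeR adjusted p = 0.00211).

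Of 18 negative regulators of the pathway 3 rose, 4 fell and 11 were not called (median log2 fold change -0.076). Over all tested genes 16.8% were called higher and 14.5% lower, so the number that rose is near that background. Usp18, a brake on the type I interferon receptor, rose to 56.5 ± 5.40 CPM in GOF, against 16.5 ± 2.44 CPM in WT, and Ptpn6, the phosphatase SHP-1, rose to 309.8 ± 28.5 CPM in GOF, against 152 ± 14.1 CPM in WT. Socs2 and Cish, SOCS family genes that STAT5 is known to induce, fell to 2.27 ± 0.805 and 46.4 ± 4.66 CPM in GOF, against 17.8 ± 4.68 and 149 ± 43.0 CPM in WT. All 4 had an edgeR adjusted p between 3.06e-05 and 0.000170.

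Of 24 genes known as STAT targets 12 rose, 9 fell and 3 were not called (median log2 fold change 0.27), beside 16.8% higher and 14.5% lower over all tested genes. Mx1 and Irf7, targets of the complex of STAT2 and IRF9, rose by 4.89 and 1.77 on the log2 scale (SE 0.23 and 0.10, edgeR adjusted p = 2.52e-06 and 6.23e-06). Irf9 itself, chosen after its value was seen, was at 195 ± 4.53 CPM in GOF and 100.1 ± 8.73 CPM in WT. Bcl2, a survival gene downstream of IL-7 and STAT5, fell to 181 ± 11.4 CPM in GOF, against 1238 ± 70.8 CPM in WT (log2 fold change -2.77, SE 0.08, edgeR adjusted p = 3.83e-07). Pim2, a kinase induced by cytokines, fell to 54.0 ± 5.09 CPM in GOF, against 221 ± 14.6 CPM in WT (log2 fold change -2.03, SE 0.10, edgeR adjusted p = 3.01e-06). Some of these targets answer to other pathways too, and markers of other cells were higher in the same GOF libraries, whose part in these counts was not tested.

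**Figure D4:**
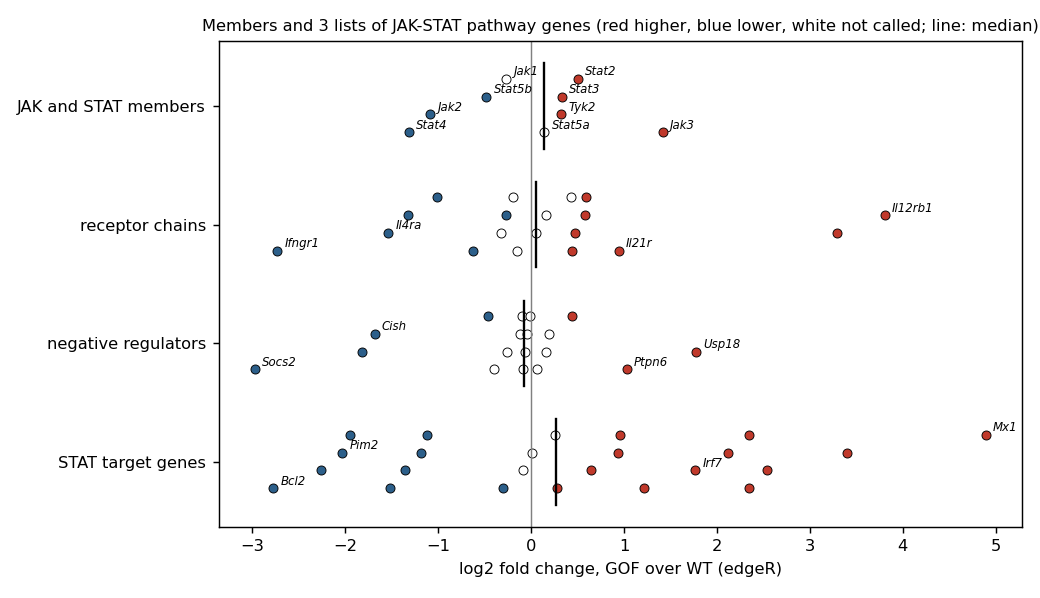
log2 fold change of GOF over WT (horizontal axis, edgeR) for the 9 genes and the tested members of 3 pathway lists (rows), red where called higher, blue where called lower and white where not called; black lines are medians, and vertical offsets within a row carry no value. Each row holds calls in both directions, and the row medians lie between -0.076 and 0.27.

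The genes whose levels over the 7 libraries were most like those of Jak3, among 8248 named genes with a mean of at least 10 CPM, were Apol7b, Il21r and Rnf123 (Pearson r of log2 values 0.999, 0.998 and 0.997). For Stat4 they were Reck, Zfp874b and Thra (r = 0.997, 0.997 and 0.996). Il21r was at 342, 381, 345 and 399 CPM in GOF and at 195, 217 and 161 CPM in WT, and so, like Jak3, was higher in GOF replicates 2 and 4 than in 1 and 3 and lowest in WT replicate 3. Reck was at 5.92 ± 0.590 CPM in GOF and 18.9 ± 1.84 CPM in WT. Such correlations rest largely on the difference between the groups, and 269 genes for Jak3 and 389 for Stat4 had an r above 0.95.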

How the data were processed

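Naive splenic CD4 T cells of 4 GOF and 3 WT mice were profiled by paired-end RNA sequencing with the TruSeq RNA kit, per the labels' protocols. The table the authors deposited holds raw counts and FPKM values. The submitters' processing notes list HISAT2 2.0.4, Cufflinks 2.1.1 and Cuffdiff with build mm10, and how reads were counted, by strand or across shared exons, is not given in the sources used here. Each deposited FPKM equalled the count over a length fixed per gene and the library total within 0.1% for 100% of values. Deposited lengths had a median of 1.60 times the longest coding transcript in GENCODE M21, which was therefore used to compare levels between genes. Groups came from sample titles and columns from sample descriptions.

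Counts were tested over all genes with edgeR 4.0.16 (R 4.3.3; filterByExpr, TMM, quasi-likelihood, all 7 libraries, 12668 genes). DESeq2 1.42.0 and limma 3.58.1 on log2(FPKM + 1) and log2(FPKM + 0.5) were alternatives. SEs come from the fold change and the F statistic. The test was run on simulated counts first. All pairs of libraries within a group differed by more than sampling noise, and the design text gives as many mice as libraries. The 9 genes, the pathway and marker lists and the alternatives were chosen with earlier results of these data known. Named genes are the 9, Pik3cd, up to 4 called genes of each pathway list by smallest p, and, for the largest called rise and fall, the 3 named genes of at least 10 CPM with the highest correlation. Genes named outside this rule (Irf9, Il2rg, Il7r, Cd8a, Cd8b1 and the genes overlapping the 9) were chosen after their values were seen. One marker gene of the erythroid list and one other gene are not reported here.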

Additional observations from a re-analysis of the deposited data

Results flagged for a closer look

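In the GOF libraries Jak1 was at 1121 CPM in replicate 2 and at 960 to 982 CPM in the other 3, a gap of 0.863 of the whole range of the group, above the 95% limit of Dixon's test for 4 samples. It was 1 of 10 values tested in this way, and chance flags about 1 group in 20. Without GOF replicate 2 the log2 fold change of Jak1 was -0.32 (edgeR adjusted p = 0.0426).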

How the results depend on the processing

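Of 160 values (the 9 genes and Pik3cd under 16 alternatives) 141 kept their direction and side of the threshold, 17 lost the call, 2 gained it and 0 turned direction. Jak2, Jak3 and Stat4 kept their calls under every alternative run (log2 fold changes -1.16 to -0.98, 1.24 to 1.54 and -1.39 to -1.20), and Stat5a was not called under any (adjusted p = 0.123 to 0.703). The number of the 9 genes called higher was 4, and ranged from 1 without WT replicate 3 to 4 when single libraries were left out, and was 2 without GOF replicate 4. It was 2 without GOF replicates 1 and 3 and 1 without GOF replicates 2 and 4, alternatives added after the data were seen, and the fits then hold 2 GOF libraries. Over all genes the counts without GOF replicates 1 and 3 were 1074 higher and 1050 lower, and without GOF replicates 2 and 4 they were 1764 higher and 1358 lower. With the replicate number as a block, in which GOF replicate 4 has no partner, 4 and 3 of the 9 genes and 1677 and 1519 of all genes were called higher and lower. The deviations of same-numbered libraries had correlations of 0.026, 0.147 and -0.041. All pairs of a GOF and a WT library ran from -0.181 to 0.147, so that of the replicate 2 libraries was the highest. The labels do not say that the numbers mark pairs, and they are not taken as such. The Stat5a to Stat5b difference ran from 0.53 to 0.70 over its alternatives. Upper quartile scaling shifted the median of all genes by 0.078. Each of the 9 genes had at least 1019 counts in every library, so counting error is small beside the spread between libraries.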

Other observations

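Within WT, replicate 2 held the highest CPM for 9 of the 9 genes, while it was the highest of the 3 for 38.5% of all tested genes. Within GOF, replicate 2 was the highest for 7 of the 9, beside 29.6% of all tested genes, the exceptions being Jak3 (replicate 4) and Stat4 (replicate 3). Leaving out WT replicate 2 changed no call among the 9 genes.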
